A study of Mus musculus with 9 samples.

Results

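Respiratory chain subunits encoded in the nucleus were followed in UVB-exposed mouse epidermis of 3 genotypes. They were taken as the protein-coding genes named Nduf (without the Ndufaf assembly factors), Uqcr, Atp5, Cox4 to Cox8, Sdha to Sdhd and Cyc1, without pseudogenes. This rule uses names only and no measured value. It found 87 of the 55536 genes listed, with 86 symbols because Atp5o was listed under 2 gene IDs. Of these, 80 passed the filter on low values, a normalized count of at least 10 in at least 3 libraries, which 14695 genes of the series passed.

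The samples were epidermal sheets from the dorsal skin of mice aged 8 weeks, an age at which hair follicles rest in telogen. The sample titles name them enzymatically isolated, UVB-exposed keratinocytes. All 9 animals had received 2 doses of UVB of 20 mJ/cm2 over 3 days, and dorsal skin, collected 24 h later, was floated overnight on 0.25% trypsin to free the epidermal sheet. The 3 genotypes were WT, Hmga2-/- and K5H2, with 3 animals each, so p-values measure the spread between these animals; Hmga2 encodes an architectural protein of chromatin. The labels name K5H2 without saying what it stands for. No unexposed skin was analysed here, so every comparison is between genotypes after UVB.

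The respiratory chain passes electrons from NADH (complex I) and succinate (complex II) through complex III and cytochrome c to oxygen at complex IV, and the proton gradient this builds drives ATP synthase (complex V). Most subunits are encoded in the nucleus and imported, while the core hydrophobic ones are encoded in mitochondrial DNA. Cells of the epidermis use this chain for ATP, and it is also a source of reactive oxygen species. Nuclear respiratory factor 1 (NRF1), ETS-family factors such as GABP and YY1 are known activators of these genes.

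Library totals were 27.4 to 36.1 M normalized counts, from about 15.4 M reads in Hmga2-/- 3 and 28.1 to 41.5 M in the other 8 libraries, as estimated from the steps between low values. Hmga2 itself stood at 346, 11 and 56 normalized counts in the WT libraries. It was at 3 to 9 in Hmga2-/- and 0 to 11 in K5H2, so WT 2 did not stand above them. The 7 basal keratinocyte markers held 4.15% to 5.96% of each total. The 5 suprabasal keratinocyte markers were less even, at 1.89% in WT 1, 6.32% in WT 2 and 4.28% in WT 3. They held 4.93% to 9.09% in Hmga2-/- and 4.59% to 6.95% in K5H2. The 12 skeletal muscle markers summed to 166 to 245, with Acta1 at 0 to 5, and the 4 endothelial markers summed to 5 to 27. On the first principal component (36.6% of the variance) WT 1 and Hmga2-/- 3 lay at opposite ends.

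The promoters shown here belong to Ndufs5, the only subunit past the threshold, to Ndufs6 and Cox6a1, whose mean was lowest in K5H2 without passing it, and to Sdha, among the steadiest over the 9 libraries. Ndufs6 and Cox6a1 were chosen for display after their values were seen. RefSeq windows of 300 bases (build GRCm38.p6, 250 bases before to 50 after the start) matched 66 of the 80 tested members. The windows lie on the minus strand at chr4:123718137-123718436 (Ndufs5), chr13:73328433-73328732 (Ndufs6), chr5:115348909-115349208 (Cox6a1) and chr13:74350191-74350490 (Sdha). Capitals mark the NRF1-type motif (GCGCA, any base, then GCGC), the ETS core CCGGAAG and the YY1-type motif AAGATGGCG, each searched on both strands.
Ndufs5: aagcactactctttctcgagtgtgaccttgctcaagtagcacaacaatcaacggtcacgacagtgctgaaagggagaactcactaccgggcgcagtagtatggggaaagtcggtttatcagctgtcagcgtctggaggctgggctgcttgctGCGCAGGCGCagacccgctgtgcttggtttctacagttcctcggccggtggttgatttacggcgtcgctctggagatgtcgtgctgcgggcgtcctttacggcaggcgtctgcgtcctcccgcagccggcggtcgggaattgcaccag
Ndufs6: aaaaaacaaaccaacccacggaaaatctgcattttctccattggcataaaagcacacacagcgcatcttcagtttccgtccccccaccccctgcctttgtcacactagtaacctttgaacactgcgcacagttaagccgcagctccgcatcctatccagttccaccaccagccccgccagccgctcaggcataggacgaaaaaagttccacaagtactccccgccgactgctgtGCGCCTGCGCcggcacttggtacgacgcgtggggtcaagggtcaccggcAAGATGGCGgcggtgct
Cox6a1: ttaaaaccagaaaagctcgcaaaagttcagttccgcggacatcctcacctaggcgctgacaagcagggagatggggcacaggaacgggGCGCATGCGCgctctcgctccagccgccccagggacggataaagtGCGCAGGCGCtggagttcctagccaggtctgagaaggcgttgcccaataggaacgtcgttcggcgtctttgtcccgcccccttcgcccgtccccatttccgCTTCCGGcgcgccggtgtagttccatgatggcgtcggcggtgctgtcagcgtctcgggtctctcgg
Sdha: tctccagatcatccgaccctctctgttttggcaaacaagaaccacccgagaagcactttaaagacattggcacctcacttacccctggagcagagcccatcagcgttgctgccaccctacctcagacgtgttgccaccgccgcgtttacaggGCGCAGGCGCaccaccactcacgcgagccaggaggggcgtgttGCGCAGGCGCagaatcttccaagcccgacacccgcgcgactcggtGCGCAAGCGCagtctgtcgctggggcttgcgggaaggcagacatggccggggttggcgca

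The Ndufs5 window held 1 NRF1-type match, beginning at position -98 where the start base is 0. The Sdha window held 3 such matches, at -98, -55 and -10. The Ndufs6 window held an NRF1-type match at -16 and a YY1-type match at 33, and the Cox6a1 window 2 NRF1-type matches and 1 ETS match. Among the 66 members with a window, 17 held an NRF1-type match (25.8%), against 10.9% of 10828 tested genes with a window. The ETS core stood in 16 members (24.2%, against 19.1% of genes) and the YY1-type motif in 7 (10.6%, against 3.35%). Genes had 1.28 windows on average and members 1.08. A match is a run of letters in a window and not a measured site. In Hmga2-/- against WT, K5H2 against WT and K5H2 against Hmga2-/-, members with an NRF1-type match had median log2 fold changes of 0.18, -0.39 and -0.57, and members without one 0.29, -0.39 and -0.62. With the ETS core they were 0.38, -0.42 and -0.84, and without it 0.20, -0.39 and -0.59. With the YY1-type motif they were 0.36, -0.48 and -0.63, and without it 0.25, -0.38 and -0.62. Median merged exon lengths with and without a match were 860 and 1046 bp (NRF1-type), 620.5 and 1056.5 bp (ETS) and 1115 and 908 bp (YY1-type). None of the differences in fold change was tested, nor was the part of length in them.

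Levels per kb of merged exon spanned more than 3 orders from the lowest to the highest tested member. Per kb and averaged over the 9 libraries, Atp5b (the catalytic beta subunit of ATP synthase) stood highest at 19382 normalized counts per kb, followed by Cox4i1 at 18050, Cox6a1 at 12363 and Atp5a1, the alpha subunit, at 10422. Complex I and II members were lower, with medians of 1574 and 1571 per kb, against 3405, 3449 and 3521 in complexes III, IV and V. Ndufb2, an accessory subunit of the complex I membrane arm, was lowest at 12.6 per kb over a merged exon length of 4375 bp. Its exons overlap those of a same-strand gene, Gm42420, listed at 0 in all libraries, and on the opposite strand those of Braf and Gm16272. Its level may therefore hold only part of its reads, which was not tested. The next lowest was Cox6b2 at 75.6 per kb, so the low end of the span rests on Ndufb2 alone.

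Isoforms of other tissues were near absent. Cox6a2 and Cox8b, which skeletal muscle and heart use, were listed at 0 in all libraries and at 0 to 3. Cox7a1, the muscle isoform of subunit 7A, was at 1 to 14, and Cox4i2, an isoform known from lung, at 0 to 5. Cox7b2 and Cox8c, known from testis, were at 0 in all libraries, and so was the second Atp5o gene ID, whose locus overlaps the first. These 7 genes did not pass the filter. Cox6b2, also known from testis, passed it at 36 to 83. The partners Cox4i1, Cox6a1, Cox6b1, Cox7a2, Cox7b and Cox8a were all above 600 in every library.

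In Hmga2-/- epidermis no subunit passed the threshold against WT. The 80 members were tested with limma (two-sided, Benjamini-Hochberg adjusted p under 0.05 over all 14695 genes), where 0.109% of genes were called higher and 0.619% lower. Of the members, 55 had a positive log2 fold change (49.2% of genes) and 25 a negative one (50.8% of genes). Their median was 0.27, against -0.01 over all genes tested. At an unadjusted p under 0.05, 9 members were higher and 3 lower, against 11.4% and 12.3% of genes. These counts were 26 and 1 without K5H2 3 in the shared fit (12.8% and 12.5% of genes) and 4 and 1 without Hmga2-/- 2 (8.6% and 10.5% of genes). With the length trend of each library removed, 7 members were higher and 11 lower at that unadjusted p (11.2% and 12.2% of genes). In that setting 48 members had a positive and 32 a negative log2 fold change, with a median of 0.08. In bulk tissue, fewer cells of a type and less RNA per cell cannot be told apart. In the authors' deposited table, 4 members were higher at an adjusted p under 0.05 (Atp5h, Cox7a2l, Ndufb11 and Ndufv3) and 0 lower, against 3.04% and 4.62% of genes.

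Some small subunits were high in Hmga2-/- 2 and 3 but not in Hmga2-/- 1. Ndufb9, an accessory subunit of the complex I membrane arm, had WT values of 232, 357 and 343 normalized counts and Hmga2-/- values of 364, 1118 and 1134. The groups did not overlap, but Hmga2-/- 1 lay just above WT 2, and the log2 fold change of 1.34 (SE 0.70, limma adjusted p = 0.262) did not pass. Its exons overlap those of the same-strand gene Gm49356, listed at 0 in all libraries. Atp5e, the epsilon subunit of the ATP synthase central stalk, had WT values of 1398, 1773 and 1493 and Hmga2-/- values of 1765, 4248 and 4694. Hmga2-/- 1 lay within the WT range here. Ndufa2, an accessory subunit of the matrix arm, was at 653, 856 and 859 against 899, 1903 and 2474, with groups that did not overlap.

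Ndufa4l2, a hypoxia-inducible relative of Ndufa4, had WT values of 1810, 6653 and 5434, against 8679, 7958 and 11785 in the knockout. WT 1 was far below the other 8 libraries except K5H2 1, at 2875, and the log2 fold change was 1.21 (SE 0.45, limma adjusted p = 0.153). Cox7a2l, which takes part in joining complexes III and IV into supercomplexes, had WT values of 2773, 4845 and 4123, against 5801, 7958 and 10076 in the knockout. The groups did not overlap, and the log2 fold change was 1.02 (SE 0.27, adjusted p = 0.0948 in limma and 0.0108 in the authors' deposited table).

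At the other end stood Ndufa12, an accessory subunit of the matrix arm, with WT values of 1447, 1111 and 1221 and Hmga2-/- values of 1254, 749 and 444. Hmga2-/- 1 again lay within the WT range, while Hmga2-/- 2 and 3 were below it (log2 fold change -0.74, SE 0.34, limma adjusted p = 0.209). Atp5g2 and Sdhd followed at -0.54 and -0.49. Sdha, Cyc1 and Atp5b were the 3 members whose Hmga2-/- libraries all lay below WT (14.9% of all genes), and 21 members had all Hmga2-/- libraries above WT (14.8% of all genes).

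In K5H2 epidermis, Ndufs5 was lower than in both other genotypes. Ndufs5 (ENSMUSG00000028648, chr4:123712710-123718202, minus strand, GRCm38) encodes a cysteine-rich accessory subunit on the intermembrane-space side of complex I. The K5H2 libraries had 545, 539 and 306 normalized counts of it. WT had 1120, 1390 and 1096, and Hmga2-/- had 1252, 1632 and 1219. The highest K5H2 library was below the lowest of the other 6, and the means were 463 ± 136 (SD, n = 3) in K5H2, 1202 ± 163 in WT and 1368 ± 230 in Hmga2-/-. It fell by 1.41 on the log2 scale against WT (SE 0.23, 95% interval of the log2 fold change -1.93 to -0.90, 2.66-fold lower, limma adjusted p = 0.0255) and by 1.60 against Hmga2-/- (SE 0.23, 95% interval -2.11 to -1.08, 3.02-fold lower, limma adjusted p = 0.0175). Both comparisons use the same K5H2 libraries. Hmga2-/- against WT gave 0.18 (adjusted p = 0.638).

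In both K5H2 comparisons the direction of Ndufs5 was the same in every alternative run, while the call depended on some libraries. No exon of another gene overlaps its own, but how reads were shared between similar gene copies was not tested. Genes called in both K5H2 comparisons also included the pseudogenes Rpl21-ps8, Rpl31-ps15, Rpl34-ps1, Tma7-ps and Hmgb1-ps7, as well as Trim5 and Trim12a. Against WT the limma adjusted p of Ndufs5 was above 0.05 without WT 1 (0.0596), WT 3 (0.102) or K5H2 1 (0.053). Against Hmga2-/- it was so without Hmga2-/- 2 (0.067) or Hmga2-/- 3 (0.0538). Without K5H2 3, its lowest library, the log2 fold changes were -1.14 (adjusted p = 0.0429) and -1.32 (adjusted p = 0.031). The authors' deposited table gave -1.38 (adjusted p = 1.15e-05) and -1.56 (3.81e-07). The neighbouring genes Macf1, at -0.11 against WT, and Akirin1, at -0.43, did not pass (adjusted p = 0.842 and 0.221); they were chosen for their position.

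**Figure D1:**
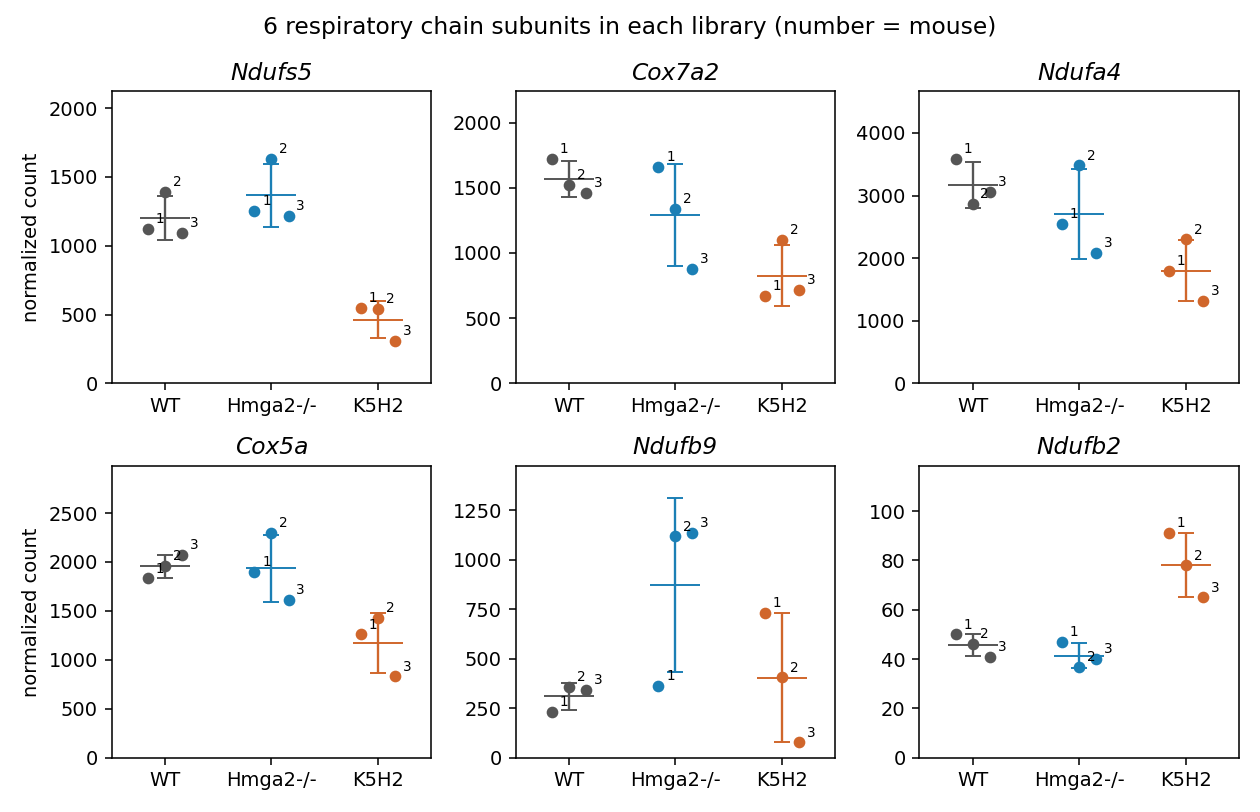
Normalized counts of 6 subunits (y axes, each from 0) in the 9 libraries by genotype, with points for mice and bars for mean and SD, n = 3. Ndufs5 in K5H2 lies at 306 to 545, below all 6 other libraries, and Ndufb2 at 65 to 91, above them.

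Against WT, Ndufs5 was the 1 of 80 members called in K5H2, and it was lower (0.626% of all genes were called lower and 0.653% higher). Of the members, 8 had a positive log2 fold change (48.1% of genes) and 72 a negative one (51.9% of genes), with a median of -0.37 against -0.02 over all genes. At an unadjusted p under 0.05, 20 were lower (9.23% of genes) and 1 was higher (8.81% of genes). All 3 K5H2 libraries lay below all 3 WT libraries in 33 members (14.1% of genes). The authors' deposited table called 5 members lower (3.06% of genes) and 0 higher (2.75% of genes). The 5 were Ndufs5, Cox7a2, Ndufa4, Uqcrq and Cox5a.

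After Ndufs5, the lowest log2 fold changes against WT were those of Cox7a2, Ndufa4, Uqcrq and Cox5a. Cox7a2, the widely expressed isoform of subunit 7A, had 668, 1098 and 714 in the K5H2 libraries, against 1722, 1521 and 1462 (WT) and 1661, 1337 and 875 (Hmga2-/-). K5H2 did not overlap WT but did overlap Hmga2-/- 3. Its log2 fold change against WT was -0.96 (SE 0.25, limma adjusted p = 0.0831, and 0.0158 in the authors' deposited table). Ndufa4, first assigned to complex I and later found in complex IV, had 1793, 2300 and 1312, against 3587, 2867 and 3058 (WT) and 2546, 3482 and 2077 (Hmga2-/-). It gave -0.85 against WT (SE 0.23, limma adjusted p = 0.0975), where the groups did not overlap. Uqcrq, a small complex III subunit, gave -0.84 (SE 0.25, limma adjusted p = 0.122). Cox5a, a peripheral subunit of the complex IV core, had 1261, 1430 and 831, against 1832, 1957 and 2073 (WT) and 1902, 2293 and 1611 (Hmga2-/-). All 3 K5H2 libraries lay below all others, at -0.77 against WT (adjusted p = 0.091) and -0.74 against Hmga2-/- (adjusted p = 0.122, both limma). Of the 14 tested complex IV members, 11 had negative values against WT. The 3 positive ones were Cox6b2 at 0.47, Ndufa4l2 at 0.21 and Cox7a2l at 0.19.

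Against Hmga2-/-, Ndufs5 was again the 1 member called in K5H2 (0.136% of all genes were called lower and 0.361% higher). The split was 2 positive (50.9% of genes) and 78 negative (49.1% of genes), and the median was -0.62 against 0.01 over all genes. At an unadjusted p under 0.05, 47 members were lower (10.7% of genes) and 1 was higher (10.4% of genes). The 47 became 23 without K5H2 3 (6.07% of genes), 17 without Hmga2-/- 2 (6.32% of genes) and 12 with the length trend of each library removed (7.03% of genes). In 25 members the K5H2 libraries all lay below Hmga2-/- (12.6% of genes). The authors' deposited table called 7 members lower (1.78% of genes) and 0 higher (2.25% of genes). The 7 were Ndufs5, Ndufs6, Ndufa13, Ndufb10, Ndufv3, Cox5a and Atp5d. Atp5d, the delta subunit of the central stalk, had K5H2 values of 8627, 7241 and 4399, Hmga2-/- values of 9668, 14463 and 13757 and WT values of 6077, 8427 and 8848. K5H2 overlapped WT and lay below Hmga2-/- (-0.94, limma adjusted p = 0.124). Ndufs6, a zinc-binding accessory subunit of complex I, had K5H2 values of 1333, 1235 and 722 against 1815, 2391 and 1801 in Hmga2-/- (-0.90, SE 0.22, limma adjusted p = 0.104).

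Together, 11 members had all 3 K5H2 libraries below all 6 others, as did 3.29% of all genes tested. They were Ndufb10, Ndufc1, Ndufs3, Ndufs4, Ndufs5, Ndufs6, Uqcrc1, Cox5a, Cox5b, Cox6c and Cox8a, several of them named after their values were seen. In Uqcrc1, a core protein of complex III, K5H2 was at 13031, 12310 and 9884 against 13779 as the lowest of the others. In Ndufs3, a core subunit of the complex I matrix arm, it was at 2169, 2097 and 1394 against 2260.

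Ndufb2 went the other way. Its K5H2 values were 91, 78 and 65, against 50, 46 and 41 (WT) and 47, 37 and 40 (Hmga2-/-). All 3 thus lay above all others (4.84% of all genes did), above WT (12.9% of genes) and above Hmga2-/- (13.8% of genes). The log2 fold changes were 0.75 (SE 0.27) and 0.89 (SE 0.27), with limma adjusted p of 0.182 and 0.137. After Ndufb2, the highest log2 fold changes in K5H2 against Hmga2-/- were those of Ndufa12 (0.05) and of Ndufb4, an accessory subunit of the membrane arm, at -0.01 (limma adjusted p = 0.991). Ndufb4 had K5H2 values of 192, 320 and 260 and Hmga2-/- values of 475, 222 and 154, which overlapped. The values of Ndufb2 are low counts for a subunit gene, and its exons overlap a same-strand gene, Gm42420, which was listed at 0 throughout. On the opposite strand they overlap Braf, at 296 to 672, and Gm16272, at 0 to 5. How reads were shared between these genes was not tested.

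**Figure D2:**
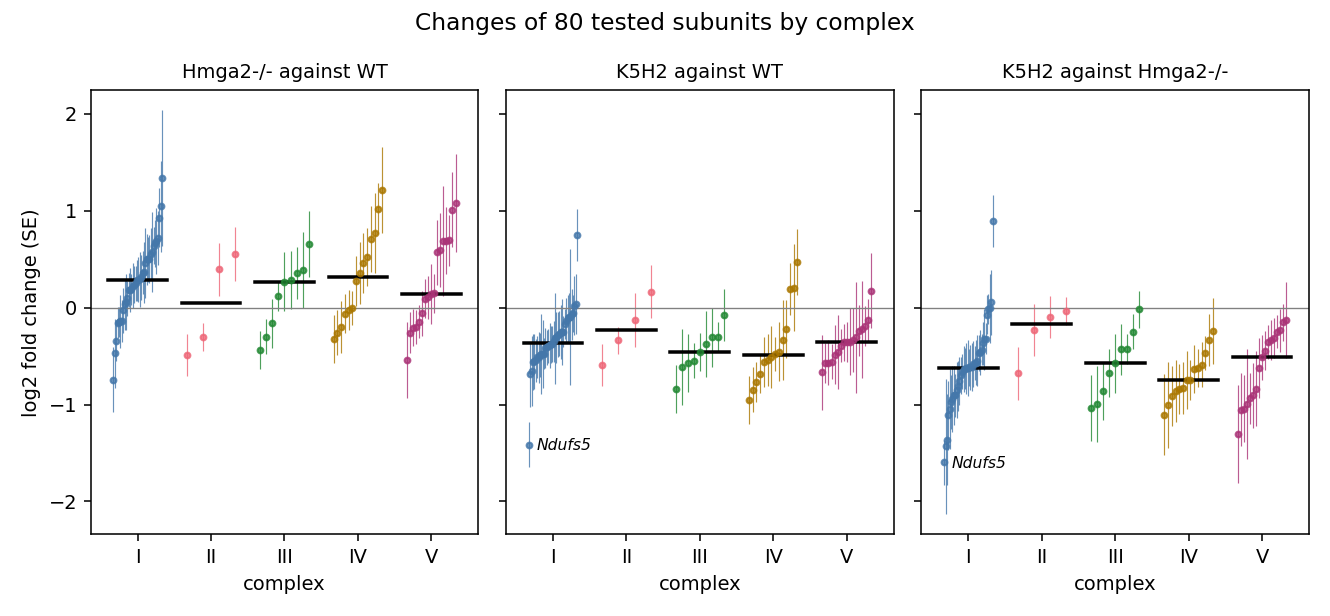
Log2 fold changes with SE (y axis) of the 80 tested subunits by complex (x axis) in the 3 comparisons, with black bars at the medians. Ndufs5 is the subunit past the threshold in both K5H2 comparisons, and Ndufb2 is the highest point there.

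By complex, the median log2 fold changes in Hmga2-/- against WT, K5H2 against WT and K5H2 against Hmga2-/- were 0.29, -0.36 and -0.62 for the 36 complex I members. They were 0.04, -0.23 and -0.16 for the 4 of complex II, and 0.27, -0.46 and -0.57 for the 9 of complex III. Complex IV (14 tested) gave 0.31, -0.49 and -0.74, and complex V (17 tested) 0.14, -0.35 and -0.51. Without K5H2 3, K5H2 against WT gave -0.10, -0.02, -0.15, -0.15 and -0.16 for complexes I to V, and K5H2 against Hmga2-/- gave -0.37, -0.03, -0.30, -0.46 and -0.32. With all libraries, complex II had the values closest to 0 in each comparison. Its members were longer, with a median merged exon length of 2065.5 bp, against 1014.5, 1363, 753 and 1021 bp in complexes I, III, IV and V. With the length trend of each library removed, K5H2 against WT gave -0.19, -0.15, -0.30, -0.32 and -0.18 for complexes I to V. The difference between complexes was not tested.

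Members differed widely in how far their libraries spread. Ndufs1, an iron-sulphur subunit of complex I, had the narrowest spread, its highest library being 1.42 times its lowest, and Sdha, the flavoprotein of complex II, stood at 1.55. The range over the 80 was 1.42 to 14.5 with a median of 2.73, and Ndufb9 was the widest. Sdha had WT values of 6642, 5658 and 5892, Hmga2-/- values of 5208, 5286 and 4273 and K5H2 values of 4757, 5222 and 4419. Both other genotypes lay below WT without passing the threshold (-0.30 and -0.34, limma adjusted p = 0.222 and 0.247). Ndufv1 (the NADH-binding subunit), Ndufv2, Ndufs7, Ndufs8, Sdhb, Sdhc, Sdhd, Cyc1, Uqcrfs1, Uqcrc2, Cox4i1, Cox5b, Atp5a1 and Atp5c1 did not pass in any comparison. The genes Atp5g1, Atp5g2 and Atp5g3, which encode the same mature c subunit, gave -0.57, -0.67 and -0.57 in K5H2 against WT, none past the threshold.

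Within complex II the subunits did not share 1 pattern. Sdhb, which carries the iron-sulphur clusters, had WT values of 2547, 2812 and 3086, Hmga2-/- values of 3526, 4919 and 4013 and K5H2 values of 3845, 2828 and 1560. Its Hmga2-/- libraries lay above WT, while K5H2 spread across both. Sdhd, a membrane anchor, had WT values of 2419, 1748 and 1991, Hmga2-/- values of 1795, 1604 and 1055 and K5H2 values of 1259, 1614 and 1213. It was lower than WT in K5H2 without overlap (-0.59, limma adjusted p = 0.188).

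In complex III, Uqcrc2, the partner of Uqcrc1 on the matrix side, had WT values of 6082, 4520 and 4861 and K5H2 values of 3422, 3901 and 3852, which did not overlap (-0.46, limma adjusted p = 0.248). Cyc1, the haem-carrying cytochrome c1, had WT values of 7020, 5236 and 6154, Hmga2-/- values of 4879, 4998 and 4956 and K5H2 values of 5079, 4394 and 3230. Both genotypes lay below every WT library (-0.30 and -0.55, limma adjusted p = 0.313 and 0.148). Uqcrfs1, the Rieske iron-sulphur protein, had K5H2 values of 4880, 4022 and 2319, which lay on both sides of the WT values of 3716, 3777 and 3792.

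Cox4i1 and Cox6a1 of complex IV and the head of ATP synthase were among the most abundant members. Cox4i1 had WT values of 10558, 13466 and 12861, Hmga2-/- values of 12695, 20544 and 20820 and K5H2 values of 14310, 12648 and 6375. Cox6a1 had 4700, 6649 and 6039, then 6078, 12501 and 12234, then 7311, 5816 and 2205 in the same order. In both, Hmga2-/- 2 and 3 stood above all other libraries and K5H2 3 below all. Atp5b had WT values of 46369, 38739 and 40982, Hmga2-/- values of 35551, 38444 and 34857 and K5H2 values of 37605, 35410 and 26267, so WT lay above both other genotypes (-0.21 and -0.36, limma adjusted p = 0.506 and 0.348). Atp5a1 had K5H2 values of 36886, 27520 and 20388, which lay on both sides of the WT values of 31125, 28814 and 30218.

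Single libraries decided much of the shift. The deviation of a member in a library is its log2(value + 1) less its own average of all 9 libraries. The median deviation of the 80 members lay at -0.02 to 0.08 in the WT libraries, while the Hmga2-/- libraries had 0.15, 0.51 and 0.22 and the K5H2 libraries -0.05, -0.08 and -0.84. K5H2 3 was the lowest library for 63 of 80 members, and Hmga2-/- 2 the highest for 44. Without K5H2 3 the median in K5H2 against WT was -0.12 (33 positive, 47 negative), with 10 members lower at an unadjusted p under 0.05 (7.76% of genes), and against Hmga2-/- it was -0.37 (7 positive, 73 negative). Without Hmga2-/- 2 the median in Hmga2-/- against WT was 0.14 and K5H2 against Hmga2-/- had no call.

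**Figure D3:**
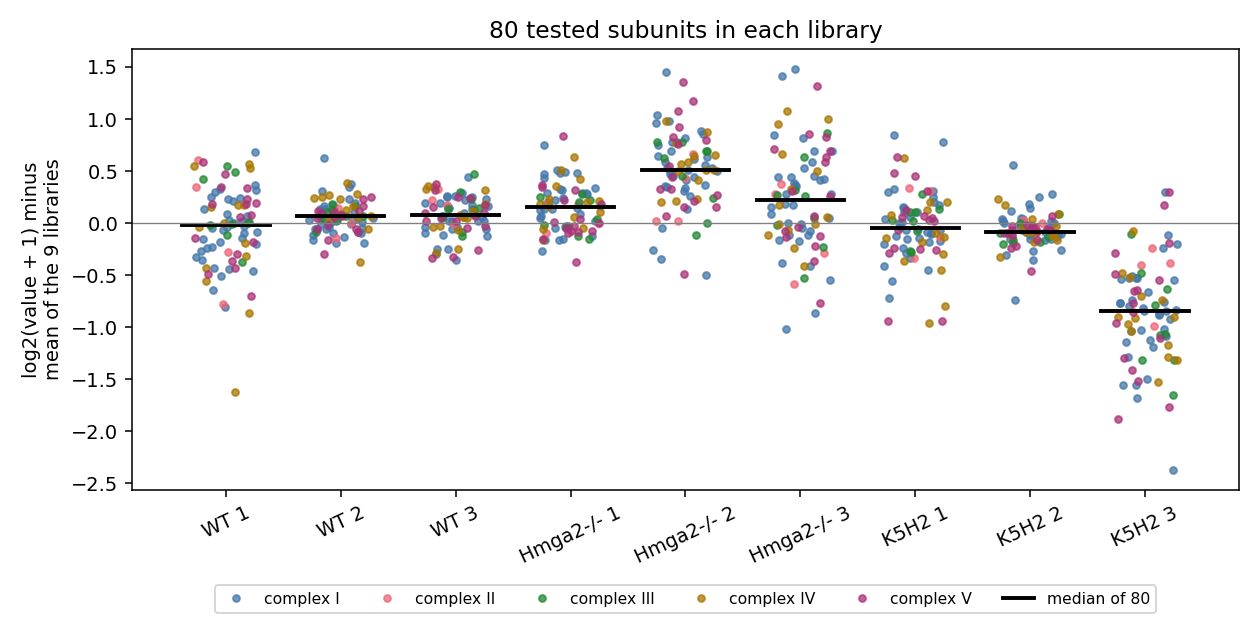
Deviation of each of the 80 tested subunits from its mean over the 9 libraries (y axis, log2 scale) in each library (x axis), coloured by complex, with the median in black. K5H2 3 has a median of -0.84 and Hmga2-/- 2 of 0.51.

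Exon length moved with these deviations in some libraries. The members are short genes, with a median merged exon length of 992 bp (371 to 4912) against 3039 bp over all genes tested. In K5H2 3 the deviation correlated with length at Spearman's rho of 0.41 over 14689 genes and 0.57 over the 80 members, and in Hmga2-/- 2 at -0.39 and -0.50; genes share a library and these are descriptions. In the other 7 libraries rho lay between -0.33 and 0.16 over all genes and between -0.38 and 0.22 over the members. All genes and members had opposite signs in Hmga2-/- 1 (-0.33 and 0.10), K5H2 1 (0.16 and -0.14) and WT 3 (-0.13 and 0.20). In K5H2 3 the 13 members under 600 bp had a median deviation of -1.31 against -0.31 for the other genes tested of that length. The 27 members from 600 to under 1000 bp had -0.90 against -0.39, and the 30 from 1000 to under 2000 bp -0.65 against -0.27. In each of these ranges the median of the members was below that of the other genes of similar length in that library. With the length trend of each library removed, a setting chosen after seeing the data, the medians were 0.08, -0.22 and -0.25 in the 3 comparisons. Ndufs5 stayed past the threshold there, at -1.22 (adjusted p = 0.0132) and -1.20 (adjusted p = 0.0115, both limma). The part of length in the changes between genotypes was not tested beyond this setting.

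**Figure D4:**
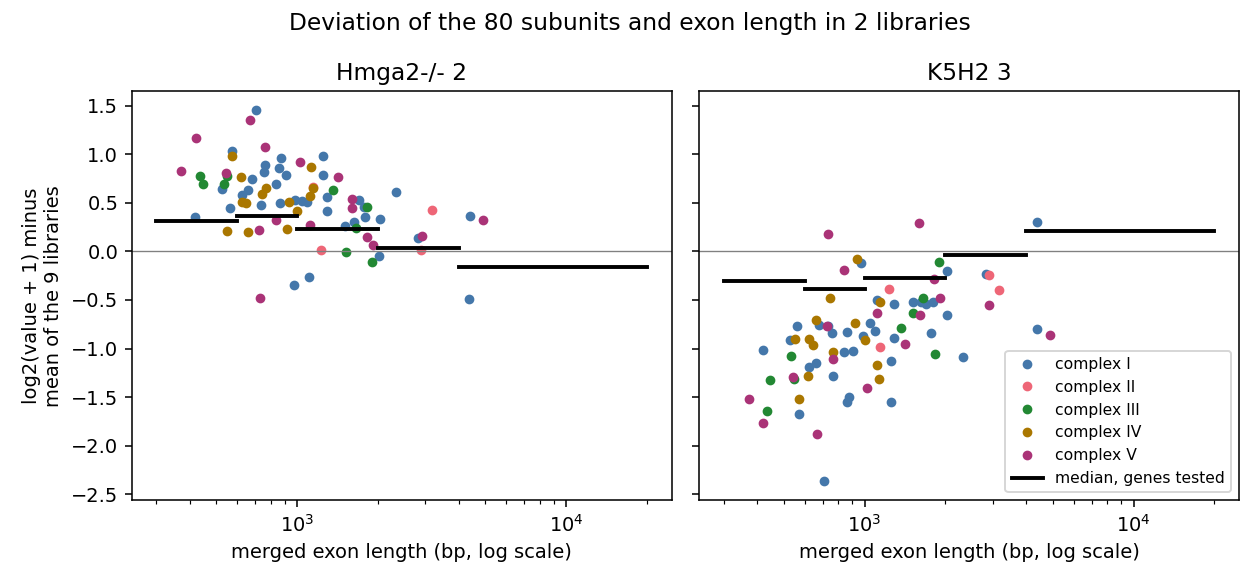
Deviation of the 80 subunits from their mean (y axis, log2) against merged exon length (x axis, log scale) in Hmga2-/- 2 and K5H2 3. Black bars mark the median of the other genes tested in each length range. In K5H2 3 the shortest members are lowest, at a median of -1.31 under 600 bp.

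Markers of other epidermal cells also differed between libraries. The 6 Langerhans cell markers summed to 5194 in WT 1, the lowest, and to 35453 and 31399 in Hmga2-/- 2 and 3, the highest, with none at 0. In WT 2 and 3, Hmga2-/- 1 and K5H2 they summed to 13281 to 23394. The 6 epidermal T cell markers summed to 4084 to 5239 in Hmga2-/-, 1818 to 2776 in K5H2 and 1414 to 4604 in WT. The 6 fibroblast markers summed to 37 to 96 in WT, 236 to 897 in Hmga2-/- and 192 to 3201 in K5H2, with K5H2 3 at the low end. Of these, 4 of 6 were tested, and Lum and Pdgfra did not pass the filter. All 4 were higher at an unadjusted p under 0.05 in both comparisons with WT, and Col1a2 rose in K5H2 against WT (3.85 on the log2 scale, limma adjusted p = 0.0463). The 6 sebocyte markers summed to 137733 in WT 1 and to 34956 to 69486 elsewhere. All 6 had negative log2 fold changes in Hmga2-/- and in K5H2 against WT (medians -0.98 and -0.55), 4 and 3 of them at an unadjusted p under 0.05 and 0 called. The 7 melanocyte markers summed to 377 to 565 in WT, 284 to 667 in the knockout and 577 to 987 in K5H2. K5H2 3, where the subunits were lowest, was the highest. The 6 tested had positive values in K5H2 against WT and against Hmga2-/- (medians 0.76 and 0.88), 1 and 4 of them at an unadjusted p under 0.05 and 0 called. Their part in the subunit values was not tested.

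The subunits encoded in mitochondrial DNA had medians of the opposite sign to the nuclear ones in both comparisons with Hmga2-/- and of the same sign in K5H2 against WT, and the difference was not tested. Of the 13, 10 passed the filter and none was called by limma in any comparison, and none had an unadjusted p under 0.05. Their median log2 fold changes were -1.12 in Hmga2-/- against WT, -0.26 in K5H2 against WT and 1.00 in K5H2 against Hmga2-/-. Of the library total, the 13 held 1.52%, 0.975% and 1.14% in the WT libraries. The Hmga2-/- libraries had 1.86%, 0.28% and 0.166%, and the K5H2 libraries 0.671%, 1.55% and 1.49%. Hmga2-/- 2 and 3 were thus lowest, while the 87 nuclear genes held 0.973%, 1.15% and 0.947% in Hmga2-/- 1 to 3. In K5H2 3 the nuclear share was lowest (0.627%) beside a mitochondrial share of 1.49%. mt-Co1, a catalytic subunit of complex IV, had WT values of 189247, 138644 and 147885, Hmga2-/- values of 258693, 45499 and 35650 and K5H2 values of 107036, 208246 and 196264. Libraries were made from polyadenylated RNA.

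**Figure D5:**
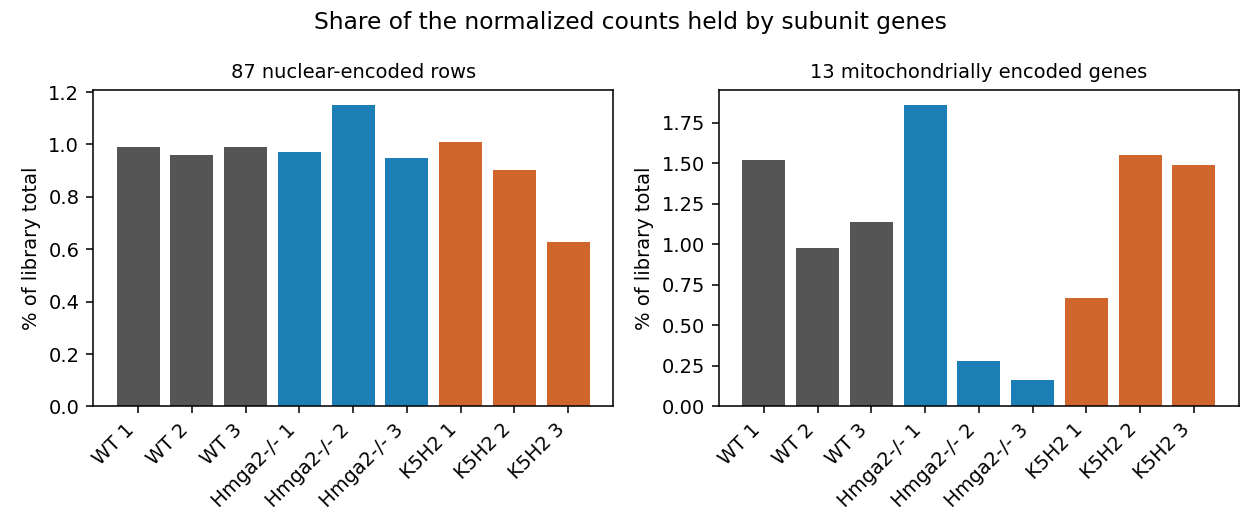
Share of each library's total normalized counts (y axis, %) held by the 87 nuclear-encoded rows (left) and the 13 mitochondrially encoded genes (right), by library and coloured by genotype. Hmga2-/- 2 is highest on the left at 1.15% and near the lowest on the right at 0.28%.

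Other mitochondrial gene lists gave 0 calls. Assembly factors of complexes I (18 tested) and IV (24 tested) had medians of -0.15 and -0.16 in K5H2 against WT, with 0 called in any comparison. The 4 assembly factors of complex II, 6 of complex III and 5 of ATP synthase had medians of -0.22, -0.02 and -0.19 there, also with 0 called. The 14 genes of cytochrome c and coenzyme Q synthesis had -0.39 and the 6 nucleotide and phosphate carriers and porins -0.28, with 0 called. Among 18 genes of the TCA cycle and pyruvate dehydrogenase and 25 of mitochondrial protein import, 0 were called as well, with medians of -0.26 and -0.33 there. The 16 regulators of mitochondrial biogenesis had a median of 0.02 and 0 called. At an unadjusted p under 0.05 in that comparison, 2 complex I factors, 3 TCA cycle genes, 5 cytochrome c and coenzyme Q genes, 7 import genes, 1 complex III factor and 1 carrier or porin gene were lower (9.23% of all genes). In the same comparison 1 complex IV factor and 1 regulator were higher (8.81% of all genes).

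Ribosomal protein genes were set beside them. The 77 tested mitochondrial ribosomal genes had medians of 0.10, -0.35 and -0.45 in Hmga2-/- against WT, K5H2 against WT and K5H2 against Hmga2-/-, with 0 called. At an unadjusted p under 0.05, 6, 0 and 0 of the 77 were higher and 1, 22 and 36 lower. The 76 tested cytosolic ones had 0.57, -0.24 and -0.77, with 0, 1 and 2 called, all lower (0.619%, 0.626% and 0.136% of all genes were). At an unadjusted p under 0.05, 38, 0 and 0 of the 76 were higher (11.4%, 8.81% and 10.4% of all genes) and 0, 8 and 66 lower (12.3%, 9.23% and 10.7% of all genes). Rpl29 fell in K5H2 against both other genotypes (-1.36, adjusted p = 0.0254, and -1.28, adjusted p = 0.0365) and Rpl34 against Hmga2-/- (-1.65, adjusted p = 0.0281, all limma). The pseudogene Rpl34-ps1 was called in both K5H2 comparisons, and how reads were shared between such copies was not tested. In K5H2 3 the median deviations were -0.63 and -0.89 for these lists, beside -0.84 for the respiratory chain members. Without K5H2 3 the cytosolic median against WT was 0.06 and the mitochondrial one -0.11, beside -0.12 for the respiratory chain. Against Hmga2-/- they were -0.52 and -0.27 without K5H2 3, beside -0.37 for the respiratory chain.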

How the data were processed

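Per the file headers, the authors deposited a score per gene and library, namely normalized counts they had rounded to whole numbers and not raw ones. Log2 fold changes and p-values of the authors' comparisons stand in the same deposited table. The submitters' processing notes name Trim Galore, STAR, DESeq2 and the build GRCm38; tool versions are not given in the sources used here. From the normalized counts, log2(value + 1) was fitted with limma-trend (limma 3.58.1, R 4.3.3) over all 9 libraries, with one mean per genotype, for genes at 10 or more in at least 3 libraries. The threshold for a call was 0.05 after Benjamini-Hochberg adjustment over all genes. Because 1 is added before the logarithm, changes of low genes come out too small. Merged exon lengths came from GENCODE vM21 (GRCm38), the build of the files. No column belonged to another series (0 such columns).

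Members and lists were chosen with earlier results of these data known. The text names members past the threshold, the 3 highest and 3 lowest fold changes of each comparison, redox and catalytic subunits, tissue isoforms, members under the filter and called genes of pathway lists. Within this rule, 1 result is not reported here. Other genes named were chosen after their values were seen, among them those called in the authors' table. Replicates differed beyond counting noise (median squared difference over counting variance 4.50 to 24.6, against 0.455 for noise alone). The fit was tested on simulated data: of genes changed 2-fold, 42%, 40% and 54% were recovered in Hmga2-/- against WT (14379 genes), K5H2 against WT (14398) and K5H2 against Hmga2-/- (14397). Noise was drawn independently for each gene there, without the shifts that many genes share in a library. These rates therefore need not hold for the subunits. Alternatives covered rescaling (library totals, trimmed mean of M values computed directly, median ratios), filters, pseudocounts, moderation, a replicate block, each library left out, and length and GC trends. Python 3.11.15 and matplotlib 3.10.9 drew the figures.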

Additional observations from a re-analysis of the deposited data

How the results depend on the processing

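The number of members called in Hmga2-/- against WT, K5H2 against WT and K5H2 against Hmga2-/- was 0, 1 and 1. It was 4, 5 and 7 in the authors' deposited comparison. In K5H2 against WT it was 0 with only the 2 genotypes in the fit, 0 with no mean-variance trend and 0 without both WT 1 and Hmga2-/- 3, which also gave 0 in K5H2 against Hmga2-/-. The cause was not tested. Leaving out each library in turn gave 0 to 0, 0 to 1 and 0 to 1 calls, and medians of 0.14 to 0.33, -0.50 to -0.12 and -0.76 to -0.37. The median in Hmga2-/- against WT, 0.27, was 0.11 with the same total in every library, where the median of all genes was -0.17, 0.08 with length trends removed and 0.05 with length and GC trends removed. In K5H2 against Hmga2-/- it was -0.62, and -0.25 and -0.23 with those trends removed. The signs of the 3 medians held in all settings run. Of the fold changes of members named by rule, 2855 stayed called or, if not called, moved by less than the replicate SD under alternatives. Another 76 moved by more, 9 lost a call and 6 gained one. These counts leave out Atp5h, Ndufb11, Ndufv3, Uqcrq, Ndufs6, Ndufa13 and Ndufb10, each called in the authors' deposited table. Over all genes, 107, 188 and 73 were called, against 10, 86 and 86 with no mean-variance trend, 22, 103 and 65 with only the 2 genotypes, 193, 218 and 321 with the same total in every library, 55, 101 and 48 at 100 or more in 3 libraries, 142, 284 and 95 with a pseudocount of 10, and 1154, 986 and 626 in the authors' deposited table. The replicate number does not mark paired animals in the labels, and same-numbered libraries did not all deviate together (correlations of -0.22 to 0.21). With the replicate block the calls were 0, 1 and 1. With 3 animals per genotype small changes can be missed, and read counts behind the rounded values were not recovered.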
